A study of Homo sapiens with 18 samples.

Results

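The 5 genes described here are long noncoding RNAs (lncRNAs) of prostate cancer cells: PCGEM1, PCA3 and DRAIC, which are known from prostate tissue or prostate cancer lines, and MALAT1 and NEAT1, which are abundant nuclear RNAs of most cell types. They were chosen by name and are 5 of the 60649 genes in the deposited count table. They were measured in LNCaP cells, an androgen-responsive line derived from a human prostate cancer metastasis, by sequencing total RNA from which ribosomal RNA had been removed, in 18 libraries that form 6 groups of 3. Cells were transfected with a non-targeting control siRNA pool, an siRNA pool against UPF1 or an siRNA pool against RCOR1. In every group the medium lacked androgen from the day after transfection. After 48 h the cells of each siRNA arm received 5 nM R1881, a synthetic androgen, or ethanol vehicle, and they were collected 48 h later. The design asks how far UPF1, an RNA helicase required for nonsense-mediated decay, and RCOR1, the scaffold of the CoREST repressor complex, contribute to the androgen response. Each target was addressed with 1 siRNA pool in 1 cell line, and the triplicates are called biological in the labels.

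The libraries held 10299607 to 17338235 counts. Levels are given as CPM, a gene's count scaled to a common library size with TMM (trimmed mean of M values), with standard deviations (SD) over 3 libraries. UPF1 fell from 134 ± 17.5 to 22.8 ± 2.79 CPM with its siRNA in vehicle and from 149 ± 13.1 to 26.3 ± 0.674 CPM in R1881, and RCOR1 fell from 99.6 ± 8.82 to 12.8 ± 3.44 CPM and from 79.7 ± 9.96 to 12.5 ± 0.296 CPM. All 10 luminal prostate markers listed were detected in every library, with KLK3 at 296 ± 47.2 CPM in control vehicle and 3621 ± 337 CPM in control R1881. Of 14 markers of basal, stromal, immune, endothelial and neuroendocrine cells, TP63, COL1A2, CD3E, CDH5 and CHGA were at 0 counts in all 18 libraries, and the 14 summed to between 5.96 and 13.9 CPM, most of it COL1A1 and KRT14. Within groups the libraries differed along a composition axis, described below, and libraries 1 and 2 of the UPF1 siRNA, R1881 group had the lowest scores on it.

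LncRNAs are transcribed and often spliced like messenger RNAs but are not known to be translated into a stable protein. PCA3 is read from the strand opposite to PRUNE2, within that gene, and is used as a urine marker of prostate cancer. PCGEM1 is a prostate-enriched RNA and DRAIC is an RNA described as repressed by androgen in prostate cancer lines. MALAT1 concentrates in nuclear speckles, the storage sites of splicing factors, and its stable end is made by RNase P cleavage and protected by a triple helix in place of a poly(A) tail. NEAT1 is the scaffold of paraspeckles, nuclear bodies built on its long isoform by the proteins NONO, SFPQ and others. UPF1 acts on translated transcripts, and spliced RNAs that reach ribosomes can be among its substrates whether or not they are counted as coding.

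In the GENCODE 29 annotation of GRCh38, PCGEM1 (ENSG00000227418.6) spans chr2:192749845-192776899 on the plus strand with an exon union of 1712 bases. PCA3 (ENSG00000225937.3) spans chr9:76691980-76863307 on the plus strand, inside PRUNE2 on the minus strand at chr9:76611376-76906087. DRAIC (ENSG00000245750.10) spans chr15:69463026-69843120 on the plus strand and has 20 annotated transcripts. NEAT1 (ENSG00000245532.9) at chr11:65422774-65445540 and MALAT1 (ENSG00000251562.8) at chr11:65497688-65506516 lie on the same strand, 52.1 kb apart. The identifier versions of PCA3, DRAIC and NEAT1 in the count table are later than those of this annotation, so the counted exons may differ. Opposite-strand genes overlap PCA3 (1 gene), DRAIC (3 genes) and MALAT1 (1 gene). Whether the authors counted by strand is not given in the sources used here, so reads of such partners cannot be told apart from those of the members. PCA3 counts were small beside those of PRUNE2, at 0.000189 to 0.00644 PCA3 counts per PRUNE2 count.

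The 300-base windows around the start sites (250 bases before to 50 after the start, from RefSeq on GRCh38.p14) are printed because R1881 response is the first comparison of the design and these windows show what letters stand at the members' starts. The table held 4 of the 5 members. Capitals mark matches, on either strand, to 4 motifs. The partial androgen receptor motif reads AGAACA, which is only a part of the full androgen receptor element given below. The TATA box is searched as TATAAA, the CCAAT box by the letters of its name, and the SP1 box has the letters GGGCGG. The windows are chr2:192749595-192749894 for PCGEM1, chr9:76764186-76764485 for PCA3, chr15:69561470-69561769 for DRAIC and chr11:65497488-65497787 for MALAT1, all on the plus strand and written 5′ to 3′. The RefSeq starts of PCA3 and DRAIC lie inside the longer GENCODE spans, and of 2 windows listed for PCA3 and for MALAT1 the first is printed.
PCGEM1: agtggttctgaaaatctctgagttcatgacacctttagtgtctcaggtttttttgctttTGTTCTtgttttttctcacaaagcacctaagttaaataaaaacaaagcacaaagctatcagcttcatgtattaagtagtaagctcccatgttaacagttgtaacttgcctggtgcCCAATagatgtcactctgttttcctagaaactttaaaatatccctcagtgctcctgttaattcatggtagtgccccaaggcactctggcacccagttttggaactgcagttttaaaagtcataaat
PCA3: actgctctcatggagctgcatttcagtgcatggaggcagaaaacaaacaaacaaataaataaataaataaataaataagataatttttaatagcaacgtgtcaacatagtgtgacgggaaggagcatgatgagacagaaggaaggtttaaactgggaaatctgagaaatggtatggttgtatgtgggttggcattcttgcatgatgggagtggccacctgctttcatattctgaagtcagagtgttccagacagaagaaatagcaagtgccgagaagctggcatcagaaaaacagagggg
DRAIC: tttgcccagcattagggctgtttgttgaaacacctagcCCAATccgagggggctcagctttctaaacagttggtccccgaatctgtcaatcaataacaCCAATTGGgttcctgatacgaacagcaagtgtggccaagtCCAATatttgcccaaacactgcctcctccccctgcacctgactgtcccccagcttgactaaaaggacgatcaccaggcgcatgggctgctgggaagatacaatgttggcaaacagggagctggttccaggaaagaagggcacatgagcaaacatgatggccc
MALAT1: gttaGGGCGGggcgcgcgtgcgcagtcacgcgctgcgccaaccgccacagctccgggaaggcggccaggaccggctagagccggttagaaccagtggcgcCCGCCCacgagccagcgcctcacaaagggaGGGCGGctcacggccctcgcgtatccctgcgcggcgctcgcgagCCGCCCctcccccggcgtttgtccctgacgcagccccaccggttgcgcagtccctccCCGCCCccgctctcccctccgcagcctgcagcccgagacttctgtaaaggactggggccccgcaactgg
The PCGEM1 window held 1 partial androgen receptor motif on the minus strand, 191 bases before the start, and 1 CCAAT box. The PCA3 window held none of the motifs. The DRAIC window held 4 CCAAT matches, of which 2 on opposite strands share bases, and the MALAT1 window held 5 SP1 boxes. The second MALAT1 window is not printed. It held 1 partial androgen receptor motif on the minus strand 41 bases before its start and 1 TATA box 30 bases before it. Over all 35116 windows of the table, 14.8% held the partial androgen receptor motif, 11.5% the TATA box, 34.6% the CCAAT box and 45.0% the SP1 box. In the full androgen receptor element the partial motif is followed by any 3 bases and its reverse complement. Only 1 window (0.00285%), not a member's, held the full element. GC content was 38.0% in the PCGEM1 window, 40.7% in PCA3, 52.0% in DRAIC and 73.7% in MALAT1, against a median of 58.7% over all windows. A match is a description of the letters and not a measured binding site.

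The prostate lncRNAs differed in pattern, and only DRAIC was called both with R1881 in every arm and with UPF1 siRNA in vehicle and in R1881. With R1881, PCA3 rose in all 3 siRNA arms and DRAIC fell in all 3. With UPF1 siRNA, DRAIC rose in vehicle and in R1881. PCGEM1 was also higher in both, but it passed the filter on low counts only with the help of its UPF1 siRNA libraries. No member was called with RCOR1 siRNA in vehicle, and in R1881 NEAT1 was the only one called, downward. These are levels in bulk RNA, in which fewer expressing cells and less RNA per cell cannot be told apart. Called means an adjusted p below 0.05 (Benjamini-Hochberg, over the 15390 genes tested) in edgeR's quasi-likelihood test, and all adjusted p values below come from that test unless another is named. For R1881 against vehicle, 3 of 5 members were called in the control arm, where 37.7% of all genes were called, 3 of 5 in the UPF1 siRNA arm (41.6%) and 2 of 5 in the RCOR1 siRNA arm (31.2%). For UPF1 against control siRNA, 2 of 5 were called in vehicle (34.6%) and 3 of 5 in R1881 (33.3%). For RCOR1 against control siRNA, 0 of 5 were called in vehicle (11.5%), with 0 at an unadjusted p below 0.05 and 0 called by DESeq2, and 1 of 5 in R1881 (12.4%). The members' counts were close to these shares of all genes, so what follows is about each member's own values.

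**Figure D1:**
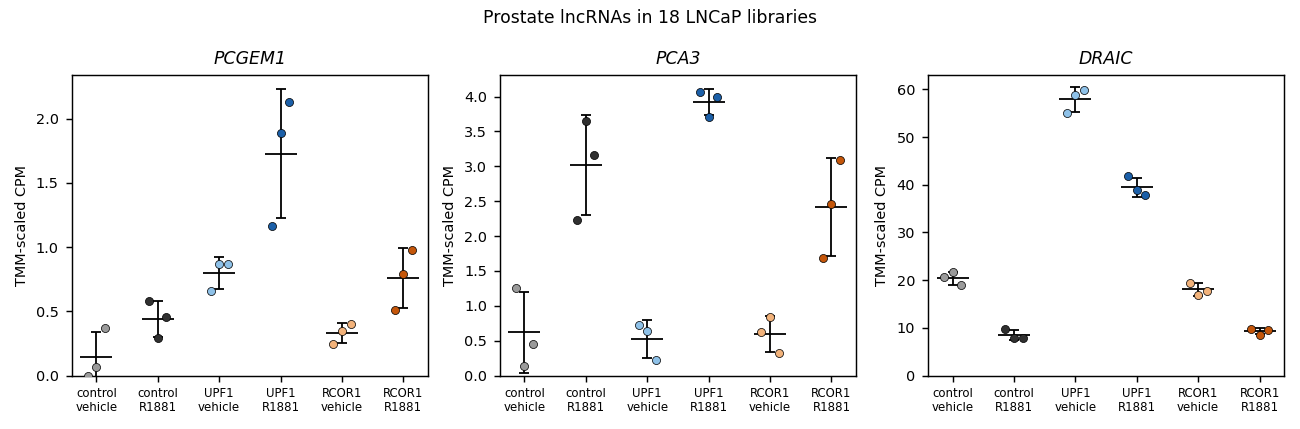
TMM-scaled CPM (vertical axis, from 0, a separate scale for each gene) of PCGEM1, PCA3 and DRAIC in the 6 groups; points are the 3 libraries of a group, wide dashes their means and bars ± 1 SD, with any bar that would pass below 0 ending at the axis. The R1881 points of PCA3 lie above its vehicle points in each arm, and the 6 UPF1 siRNA points of DRAIC, 37.9 to 59.9 CPM, lie above the other 12.

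DRAIC, an intergenic lncRNA of chromosome 15, gave the most precise pattern of the 5. With control siRNA it stood at 20.7, 21.6 and 18.9 CPM in vehicle and at 9.73, 7.97 and 7.77 CPM in R1881. With UPF1 siRNA it stood at 55.0, 58.8 and 59.9 CPM in vehicle and at 41.7, 38.8 and 37.9 CPM in R1881. With RCOR1 siRNA it stood at 19.4, 16.9 and 17.8 CPM in vehicle and at 9.83, 8.59 and 9.52 CPM in R1881. The R1881 libraries lay below the vehicle libraries of their own arm without overlap, and the lowest UPF1 siRNA library lay above the highest library of any other group. Such separation of 3 libraries from 3 was seen in 42.9%, 49.5% and 43% of all tested genes for R1881 in the control, UPF1 and RCOR1 arms, and in 44.9% (vehicle) and 40.8% (R1881) for UPF1 siRNA against the control pool. DRAIC's SD within groups was 0.108 on the log2 scale, against 0.201 for the median gene.

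In log2 fold change ± standard error (SE), DRAIC fell with R1881 by 1.26 ± 0.102 in the control arm (adjusted p = 6.4e-08), by 0.55 ± 0.0926 in the UPF1 siRNA arm (0.00019) and by 0.95 ± 0.101 in the RCOR1 siRNA arm (2.1e-06). It rose with UPF1 siRNA by 1.50 ± 0.0956 in vehicle (adjusted p = 2.4e-08) and by 2.21 ± 0.102 in R1881 (1.2e-09). RCOR1 siRNA gave -0.18 in vehicle (95% interval -0.38 to 0.03) and 0.13 in R1881 (-0.09 to 0.36), and neither was called. Set directly against RCOR1 siRNA, UPF1 siRNA gave higher DRAIC by 1.68 in vehicle (adjusted p = 6.6e-09), where 1 of 5 members and 33.1% of genes were called, and by 2.08 in R1881 (1.6e-09), where 2 of 5 members and 40.6% of genes were called. The response to R1881 differed between the UPF1 and control arms by 0.71 ± 0.137 (interaction, adjusted p = 0.012). In CPM, R1881 left 41.6% of the vehicle level with control siRNA and 68.2% with UPF1 siRNA. This was 1 of 5 members, where 2.72% of all genes were called. Over the 12 fits without 1 library its adjusted p ran from 0.003 to 0.062. The interaction was 0.65 with an adjusted p of 0.062 without control R1881 library 3, and 0.66 with an adjusted p of 0.18 without UPF1 R1881 libraries 1 and 2. The RCOR1 interaction was 0.31 with an adjusted p of 0.47. For that term 0 of 5 members were called against 0.767% of genes, 2 had an unadjusted p below 0.05 and DESeq2 called 0. Between the UPF1 and RCOR1 arms the R1881 response of DRAIC differed by 0.40 (adjusted p = 0.12). There, 0 of 5 members were called against 1.69% of genes, 2 had an unadjusted p below 0.05 and DESeq2 called 0.

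PCA3, the antisense lncRNA inside PRUNE2, was low in vehicle in every arm. Its counts were 19, 2 and 5 with control siRNA, 11, 8 and 3 with UPF1 siRNA and 10, 12 and 4 with RCOR1 siRNA, that is 0.619 ± 0.577, 0.524 ± 0.270 and 0.594 ± 0.260 CPM. In R1881 the counts were 31, 50 and 35, then 70, 53 and 47, then 23, 28 and 38, that is 3.02 ± 0.721, 3.92 ± 0.189 and 2.41 ± 0.704 CPM. All 9 R1881 libraries lay above all 9 vehicle libraries. PCA3 rose by 2.22 ± 0.460 log2 units in the control arm (adjusted p = 0.0011), by 2.88 ± 0.455 with UPF1 siRNA (0.00011) and by 1.97 ± 0.474 with RCOR1 siRNA (0.0044). Control vehicle library 1, with 19 counts, weighed on the first value, which was 3.38 (adjusted p = 0.00011) without it.

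PCA3 was not called between siRNAs. In R1881 the UPF1 siRNA libraries lay just above the control libraries, and the difference was 0.38 (95% interval -0.37 to 1.13, adjusted p = 0.43). For RCOR1 siRNA in R1881 it was -0.33 (-1.13 to 0.48, adjusted p = 0.66), and between UPF1 and RCOR1 siRNA in R1881 it was 0.71 (adjusted p = 0.13). Of the 12 PCA3 libraries above the 0.737 CPM limit of the filter on low counts, 9 were R1881 libraries and 1 in each arm was a vehicle library. The filter needed 3 libraries, so PCA3 did not pass it only through its R1881 libraries. PRUNE2, the coding gene on the other strand, stood at 994 ± 290 CPM in control vehicle and 1039 ± 280 CPM in control R1881, and was called in none of the 3 R1881 comparisons. It was called between RCOR1 and control siRNA in R1881, where it fell by 0.93 ± 0.257 (adjusted p = 0.027).

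PCGEM1, a prostate-enriched intergenic lncRNA of chromosome 2, was read at 0 to 27 counts per library. Its counts were 0, 1 and 4 in control vehicle and 8, 4 and 5 in control R1881. The UPF1 siRNA libraries held 10, 11 and 12 counts without androgen and 20, 27 and 25 with it. The RCOR1 siRNA libraries held 4, 5 and 5, then 7, 9 and 12. In rising order of mean level the groups ran control vehicle (0.145 ± 0.195 CPM), RCOR1 vehicle (0.333 ± 0.0774), control R1881 (0.440 ± 0.143), RCOR1 R1881 (0.760 ± 0.233), UPF1 vehicle (0.798 ± 0.121) and UPF1 R1881 (1.73 ± 0.503). Neighbours in that order overlapped except the last pair.

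PCGEM1 rose with UPF1 siRNA by 2.58 ± 0.614 log2 units in vehicle (adjusted p = 0.0038) and by 1.92 ± 0.428 in R1881 (0.0029). The vehicle value rests on 5 counts in the control group and was 4.22 (adjusted p = 0.00051) without control vehicle library 3. R1881 gave 1.74 ± 0.693 in the control arm (adjusted p = 0.059), 1.09 ± 0.380 with UPF1 siRNA (0.031, called) and 1.18 ± 0.512 with RCOR1 siRNA (0.095). The call in the UPF1 arm was lost in 5 of 6 fits that left out 1 library (adjusted p 0.064 to 0.095, log2 values 0.92 to 1.15) and with DESeq2 (0.067). Without control vehicle library 3 the control arm gave 3.38 (adjusted p = 0.005). The R1881 responses of the UPF1 and control arms differed by -0.66 (95% interval -2.30 to 0.99), which was not called.

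RCOR1 siRNA gave 1.33 for PCGEM1 in vehicle (95% interval -0.20 to 2.86, adjusted p = 0.28) and 0.76 in R1881 (-0.29 to 1.81, adjusted p = 0.37). The vehicle value ran from 0.69 to 2.97 over the 6 fits without 1 library, and was called without control vehicle library 3 (2.97, adjusted p = 0.048). Against RCOR1 siRNA, UPF1 siRNA gave 1.25 in vehicle (adjusted p = 0.065) and 1.16 in R1881 (0.027), and the latter was not called in 4 of 6 fits without 1 library (adjusted p up to 0.11). PCGEM1 entered the test through libraries in which it was high, since 5 of the 7 libraries above the filter limit were UPF1 siRNA libraries and the other 2 RCOR1 R1881 libraries. The filter needed 3 libraries and no control library was above the limit. The direction of its UPF1 siRNA differences was thus partly set by the filter, and they are given as a description.

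**Figure D2:**
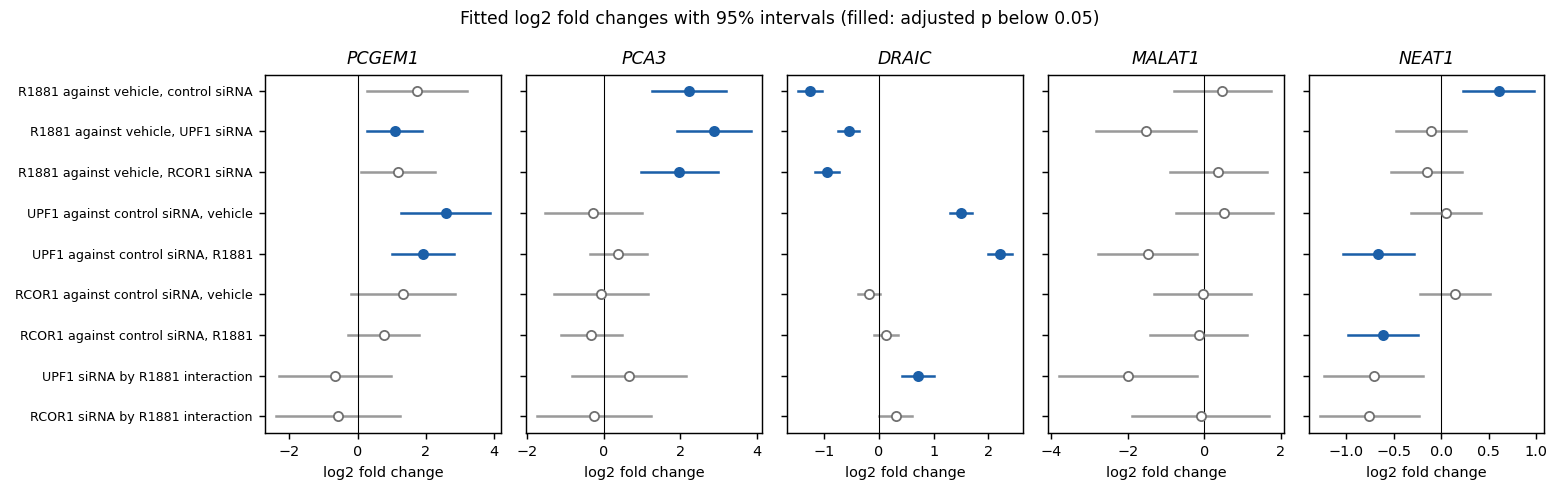
Fitted log2 fold changes (horizontal axis, a separate scale for each gene) of the 5 members in 9 comparisons, with 95% intervals; filled blue points passed an adjusted p of 0.05 and open points did not. DRAIC has the narrowest intervals, and MALAT1 has no filled point.

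Other lncRNAs named from prostate cancer were read beside the members. Of 23 listed, 13 were tested. With R1881 in the control arm 8 rose and 2 fell, where 20.1% of all genes were called higher and 17.6% lower. The median log2 fold change of the 13 was 0.67, against 0.02 over all genes. ARLNC1 and LINC00844 passed the 0.737 CPM limit in R1881 libraries only, so they had to be higher there, and neither this count nor the median supports a direction for the list. ARLNC1, an RNA described as binding androgen receptor transcripts, rose by 4.77 ± 0.675, from 0.0768 ± 0.0706 to 2.28 ± 0.383 CPM. LINC00844 rose by 3.94 ± 0.480, SOCS2-AS1 by 3.58 ± 0.303, PCAT14 by 3.47 ± 0.587 and CTBP1-AS by 2.69 ± 0.0938. TMPO-AS1 and DLEU2 were the pair that fell, by 1.72 ± 0.234 and 1.10 ± 0.216. With UPF1 siRNA 5 rose and 2 fell with R1881 (21.6% and 20% of all genes, median 0.37), and with RCOR1 siRNA 6 rose and 2 fell (16.3% and 14.9%, median 0.52). ARLNC1, LINC00844, SOCS2-AS1 and CTBP1-AS were called higher in each arm. PCAT14 rose by 1.45 ± 0.441 with RCOR1 siRNA and gave an uncalled value with UPF1 siRNA. In the control arm the rise of PCA3 lay within the range of these responses, and the fall of DRAIC lay between those of TMPO-AS1 and DLEU2.

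With UPF1 siRNA in vehicle 2 of the 13 rose and 3 fell (18.5% and 16% of all genes). PCAT14, an RNA raised in many prostate cancers, rose by 4.07 ± 0.543, from 0.105 ± 0.0947 to 1.80 ± 0.302 CPM, and SOCS2-AS1 by 2.26 ± 0.332. TMPO-AS1 fell by 1.47 ± 0.228, CTBP1-AS by 0.72 ± 0.099 and CTBP1-DT by 0.25 ± 0.0872. In R1881 3 rose and 2 fell (17.6% and 15.7% of all genes). They were ARLNC1 (1.11), PCAT14 (1.02) and SOCS2-AS1 (0.83) upward and TMPO-AS1 (-1.27) and SCHLAP1 (-0.83) downward. Without UPF1 R1881 libraries 1 and 2, none of 15 tested passed in R1881. With RCOR1 siRNA in vehicle SOCS2-AS1 rose by 1.39 ± 0.361, while TMPO-AS1 fell by 0.79 ± 0.218 and CTBP1-DT by 0.39 ± 0.0873. The R1881 response differed between the UPF1 and control arms for PCAT14 (-3.06 ± 0.691, adjusted p = 0.029) and CTBP1-AS (0.81 ± 0.130, adjusted p = 0.0032). PCAT14 had 4 counts in all of control vehicle, and its value was -2.75 (adjusted p = 0.2) without UPF1 R1881 libraries 1 and 2. For CTBP1-AS it was 0.87 (0.035). Antisense RNAs in this list share the strand limit given for PCA3, and KLKP1 is a pseudogene that can share reads with the kallikrein genes.

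**Figure D3:**
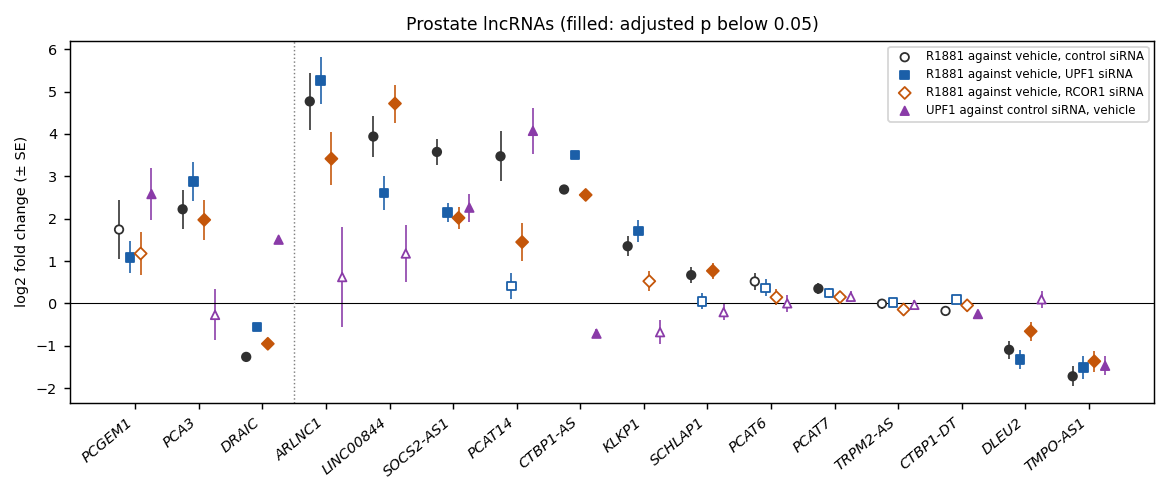
Log2 fold change ± SE (vertical axis) of the 3 prostate members, left of the dotted line, and the 13 other prostate lncRNAs tested, ordered by R1881 response in the control arm; circles, squares and diamonds are R1881 against vehicle with control, UPF1 and RCOR1 siRNA, triangles are UPF1 against control siRNA in vehicle, and filled symbols passed an adjusted p of 0.05. PCGEM1, DRAIC, SOCS2-AS1 and PCAT14 have filled triangles above 0.

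MALAT1 was the most abundant member and took 0.374% to 3.54% of all counts in a library. In control vehicle it stood at 29083, 10830 and 20086 CPM, and in control R1881 at 14542, 34576 and 33762 CPM. With UPF1 siRNA it stood at 20225, 30400 and 35087 CPM in vehicle and at 3761, 4588 and 21388 CPM in R1881. With RCOR1 siRNA it stood at 12329, 14118 and 31489 CPM in vehicle and at 12976, 31190 and 30359 CPM in R1881. The groups overlapped in every comparison. UPF1 R1881 libraries 1 and 2 lay below the other 16 libraries, and the highest library of that group was 5.69 times its lowest. Its SD within groups, 0.83 on the log2 scale, was larger than that of 99.4% of tested genes.

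Of 12 comparisons, 0 called MALAT1 with edgeR, 5 had an unadjusted p below 0.05, and DESeq2 called 3. R1881 gave 0.47 ± 0.597 in the control arm (adjusted p = 0.59), -1.53 ± 0.609 with UPF1 siRNA (0.055) and 0.36 ± 0.597 with RCOR1 siRNA (0.7). UPF1 siRNA gave 0.52 ± 0.598 in vehicle (adjusted p = 0.55) and -1.48 ± 0.609 in R1881 (0.074), and the interaction was -1.99 ± 0.851 (0.21). RCOR1 siRNA gave -0.05 in vehicle (95% interval -1.32 to 1.22) and -0.15 in R1881 (-1.42 to 1.11). The 2 low libraries carried the negative values. Without them R1881 gave -0.44 in the UPF1 arm (adjusted p = 0.71) and UPF1 siRNA gave -0.42 in R1881 (0.74). Without library 3 of that group the values were -2.77 (0.00091) and -2.72 (0.0017), and without control R1881 library 1 the second was -1.81 (0.034). DESeq2 called both, at -1.55 (adjusted p = 0.022) and -1.49 (0.03). The other DESeq2 call was UPF1 against RCOR1 siRNA in R1881 (-1.35, 0.045), where edgeR gave -1.33 (95% interval -2.61 to -0.04, adjusted p = 0.093). Other scalings put the R1881 difference in the UPF1 arm at adjusted p values of 0.03 to 0.045, and a stricter filter gave 0.047. With no filter on low counts that difference was -1.53 ± 0.249 (adjusted p = 3.8e-07). In that fit UPF1 siRNA in R1881 gave -1.48 ± 0.249 (1.4e-06) and the interaction was -1.965 ± 0.348 (2.9e-05). The log2 values lay close to those with the filter, where the SEs were 0.609, 0.609 and 0.851. The libraries were the same, and why the SEs were smaller was not tested. The low adjusted p values without the filter are thus not read as stronger evidence of a fall. The 95% interval of the R1881 difference in the control arm was -0.80 to 1.74.

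**Figure D4:**
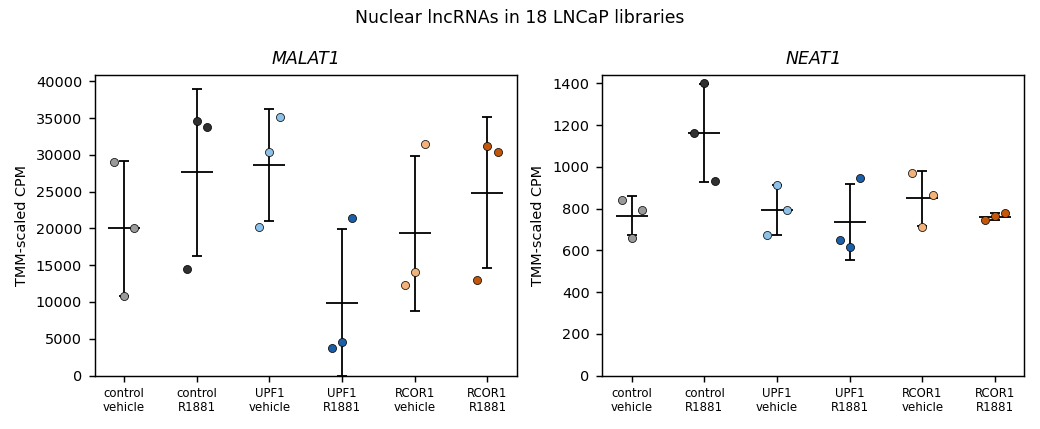
TMM-scaled CPM (vertical axis, from 0, a separate scale for each gene) of MALAT1 and NEAT1 in the 6 groups; points are the 3 libraries of a group, wide dashes their means and bars ± 1 SD, with any bar that would pass below 0 ending at the axis. The MALAT1 points of the UPF1 R1881 group run from 3761 to 21388 CPM, while the 3 control R1881 points of NEAT1, 931 to 1400 CPM, lie above its control vehicle points.

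NEAT1, the paraspeckle RNA next to MALAT1, stood at 844, 661 and 794 CPM in control vehicle and at 1161, 1400 and 931 CPM in control R1881, without overlap. With UPF1 siRNA it stood at 676, 912 and 793 CPM in vehicle and at 647, 615 and 944 CPM in R1881. With RCOR1 siRNA it stood at 969, 711 and 865 CPM in vehicle and at 745, 762 and 779 CPM in R1881. The control R1881 group had the highest mean. Its lowest library (931 CPM) lay below 1 library of RCOR1 vehicle (969) and 1 of UPF1 R1881 (944). The other 5 groups, with means of 736 to 848 CPM, overlapped each other. NEAT1 rose with R1881 in the control arm by 0.60 ± 0.175 (adjusted p = 0.012). It gave -0.11 (95% interval -0.48 to 0.26) with UPF1 siRNA and -0.16 (-0.53 to 0.22) with RCOR1 siRNA.

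Between siRNAs in vehicle NEAT1 gave 0.05 (95% interval -0.32 to 0.42) for UPF1 and 0.15 (-0.22 to 0.52) for RCOR1 against control. In R1881, NEAT1 was lower than with control siRNA by 0.66 ± 0.175 with UPF1 siRNA (adjusted p = 0.0087) and by 0.61 ± 0.175 with RCOR1 siRNA (0.031). These comparisons and the R1881 response in the control arm share the 3 control R1881 libraries. The differences in R1881 response were -0.71 ± 0.246 for UPF1 (adjusted p = 0.14) and -0.76 ± 0.246 for RCOR1 (0.23), and neither was called. The UPF1 difference was called without UPF1 R1881 library 3 (-0.92, adjusted p = 0.028) and with no filter on low counts (-0.67, 0.0032). The RCOR1 difference was called with no filter (-0.74, 0.011). With no filter both SEs were 0.16 on the same libraries, against 0.246 above, and the reason was not tested. With the composition score described next as a covariate the RCOR1 difference was -0.84 (adjusted p = 0.0038), a value whose limit is given there. The call in the control arm was lost without control vehicle library 2 (0.50, adjusted p = 0.058), without control R1881 library 2 (0.41, 0.083) and when counts were scaled by library size alone (0.36, 0.092). The RCOR1 call was lost in 5 of 6 fits without 1 library (-0.47 to -0.62, adjusted p 0.061 to 0.11) and with library size alone (-0.53, 0.054). The UPF1 value was -0.36 (adjusted p = 0.33) without UPF1 R1881 libraries 1 and 2.

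MALAT1, and to a lesser degree NEAT1, followed a composition axis on which libraries of the same group differed. The axis was the leading principal component of 15385 other genes after removal of group means, held 41.2% of their remaining variance, and had gene loadings that ran against GC content (Spearman rho -0.79 over 15198 genes, a description across genes). Scores ran from -0.438 to 0.234, and UPF1 R1881 libraries 1 and 2 were lowest at -0.438 and -0.334. Within groups, the correlation of log2 level with the score over 18 libraries was 0.95 for MALAT1, 0.55 for NEAT1, -0.48 for DRAIC, 0.22 for PCGEM1 and 0.21 for PCA3. The library with the highest MALAT1 was the one with the highest score in 5 of 6 groups, and the same held for the lowest in 5 of 6. For NEAT1 these counts were 4 and 4. MALAT1 and NEAT1 correlated at 0.57 within groups, and the ratio of MALAT1 to NEAT1 ranged from 5.81 to 44.2 with a median of 25.0, so the pair did not move in a fixed proportion. With the score as a covariate, MALAT1 gave -0.69 ± 0.170 for R1881 in the UPF1 arm (adjusted p = 0.0017) and 0.45 ± 0.158 in the control arm (0.019). In that fit UPF1 siRNA gave 0.46 in vehicle (adjusted p = 0.017) and -0.68 in R1881 (0.002), the interaction was -1.14 (0.0016), and R1881 in the RCOR1 arm gave -0.03 (0.9). The score was made from the spread within groups of these same libraries. Fitting it takes out part of the spread that the SE measures. For MALAT1 with R1881 in the control arm the SE went from 0.597 to 0.158. The adjusted p values of this fit are therefore too small and are not read as calls. The part of composition in the MALAT1 and NEAT1 results was not tested beyond these values.

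**Figure D5:**
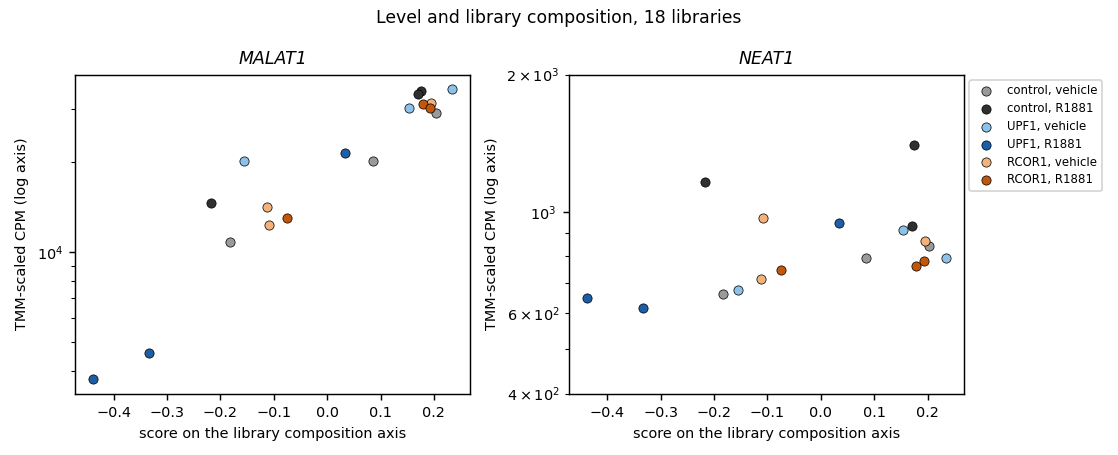
TMM-scaled CPM (vertical axis, log scale) of MALAT1 and NEAT1 against each library's score on the composition axis (horizontal axis, no unit); each point is 1 of 18 libraries, coloured by group. MALAT1 climbs with the score from 3761 to 35087 CPM, and NEAT1 shows a looser slope with 2 control R1881 libraries standing above it.

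Genes tied to the bodies in which MALAT1 and NEAT1 reside were read as lists. Of 14 paraspeckle protein genes tested, 4 rose and 3 fell with R1881 in the control arm (median -0.11, all genes 0.02). CPSF7 and TAF15 each rose by 0.49. Scaled by library size alone this split became 1 higher and 7 lower, and that scaling moved the median of all genes by -0.22. With UPF1 siRNA 0 rose and 6 fell in vehicle (median -0.20, all genes 0.03), led by TAF15 (-0.65), RBM14 (-0.60) and NONO (-0.58), and 0 rose and 7 fell in R1881, which became 4 lower by library size alone and 3 lower without UPF1 R1881 libraries 1 and 2. Of 12 speckle protein genes, 5 fell with UPF1 siRNA in vehicle, led by SRSF2 (-0.64), SRSF7 (-0.53) and SRSF3 (-0.41), and 5 fell in R1881, against 3 by library size alone and 1 without those libraries. With UPF1 siRNA, 18.5% of all genes were called higher and 16% lower in vehicle, and 17.6% and 15.7% in R1881. With R1881 in the control arm these shares were 20.1% and 17.6%. RCOR1 siRNA in vehicle changed 0 of the 14 paraspeckle and 1 of the 12 speckle genes, where 11.5% of all genes were called. In R1881 it lowered 2 paraspeckle and 1 speckle gene, where 12.4% were called, and both counts were 0 by library size alone.

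Of 13 genes for the processing and modification of MALAT1 (RNase P subunits, the tRNA processing enzyme ELAC2 and RNA methyltransferases), 3 fell with UPF1 siRNA in vehicle, including METTL16, which binds the MALAT1 triple helix (-0.76 ± 0.0772). With R1881 in the control arm 3 rose and 1 fell, with METTL3 at 0.45 ± 0.0779, and by library size alone 0 rose and 3 fell. Of 20 other nuclear lncRNAs listed, 13 were tested, and R1881 in the control arm raised 1, LINC-PINT (1.47 ± 0.303), and lowered 1, CHASERR (-0.56 ± 0.119). LINC-PINT rose in the other arms too, by 1.19 ± 0.307 with UPF1 siRNA and 1.42 ± 0.310 with RCOR1 siRNA. UPF1 siRNA in vehicle raised TUG1 (0.62 ± 0.192) and CHASERR (0.36 ± 0.118) and lowered SNHG14 (-0.56 ± 0.209). Of 20 tested genes near the members' loci, 3 rose and 5 fell with UPF1 siRNA in vehicle. The counts of this paragraph stand beside 18.5% of all genes called higher and 16% lower with UPF1 siRNA in vehicle, and 20.1% and 17.6% with R1881 in the control arm.

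Per kilobase of exon union the members spread over several orders of magnitude. The median over 18 libraries was 2357 CPM per kb for MALAT1, 34.9 for NEAT1, 1.04 for DRAIC, 0.318 for PCGEM1 and 0.104 for PCA3. The order of MALAT1, NEAT1 and DRAIC among themselves did not change with the library, since their ranges were 426 to 3974, 27.03 to 61.5 and 0.421 to 3.25. The range of PCGEM1 (0 to 1.24) overlapped those of DRAIC and of PCA3 (0.00979 to 0.287). The union counts every annotated isoform, so a gene expressed from a short isoform is understated on this scale.

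The genes whose log2 level followed each member most closely over the 18 libraries were named by Pearson correlation, which draws on the same depth and group structure. For DRAIC they were VPS35L (0.979), RDH10 (0.969) and TSPAN5 (0.961). VPS35L, a part of the endosomal retriever complex, stood at 121 CPM in control vehicle and 152 CPM with UPF1 siRNA, a smaller step than that of TSPAN5, a tetraspanin, from 16.95 to 48.9 CPM. For PCA3 they were RP11-35O15.2 (0.944), the phosphodiesterase gene PDE3A (0.932) and AQP4-AS1 (0.926), all under 3 CPM in every group. For PCGEM1 they were CIAO2A (0.907), SDR9C7 (0.905) and PUDP (0.903). For MALAT1 they were TTC3P1 (0.988), ZNF12 (0.984) and PTAR1 (0.982), and within groups DNAJC13 (0.995) and ASCC3 (0.993). For NEAT1 the highest were lower, ZNF20 (0.739), PPP3R2 (0.722) and ZNF432 (0.72), and within groups RP11-138A9.1 (0.902), GABPB1-AS1 (0.873) and GOLGA8A (0.864).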

How the data were processed

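LNCaP RNA was sequenced in 18 libraries, made from 500 ng of total RNA each. The authors deposited unnormalised integer read counts for each gene. Per the submitters' processing notes, bcl2fastq 2.20, STAR 2.7.9a and featureCounts of Subread 1.6.4 were used with GRCh38.p7. For annotation release and strand setting, no source used here gives a value. Libraries were numbered 1 to 3 in accession order. In edgeR 4.0.16 (R 4.3.3), filterByExpr left 15390 genes, TMM scaled the libraries, and a model with 6 group means over all 18 libraries gave 12 comparisons, with quasi-likelihood tests and Benjamini-Hochberg adjustment over all genes. SE is the absolute log2 fold change over the square root of F, and intervals are 95% with 15.65 degrees of freedom. They cover the spread between these libraries, not between siRNA pools. The script was tested on simulated data. Alternatives were other scalings, filters, DESeq2 1.42.0, fits of the compared groups alone, the composition score as covariate, left-out libraries and, added after seeing the data, a block of libraries with consecutive title numbers. The members and gene lists were chosen with earlier results of these data known. From each list the called genes with the largest changes are named, up to 3 (5 for lncRNA lists), together with the 3 genes most correlated with each member over a prior count of 2. PRUNE2 was named by rule. Listed genes were left untested where counts were low, or where a symbol had more than 1 identifier or was absent from the count table. Some genes that this rule names are not reported here.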

Additional observations from a re-analysis of the deposited data

Results flagged for a closer look

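The R1881 response of DRAIC differed between the UPF1 siRNA arm and the control siRNA arm by 0.711 on the log2 scale in a direct test of the difference (edgeR interaction term, adjusted p = 0.012). For this term 2.72% of all genes were called. The call was lost without control R1881 library 3 (0.645, adjusted p = 0.062). Without UPF1 R1881 libraries 1 and 2 the difference was 0.657. All 3 R1881 libraries lay below all 3 vehicle libraries in both arms. Relative to vehicle the fall was smaller with UPF1 siRNA, but in CPM it was larger. Mean levels went from 20.4 to 8.49 CPM with control siRNA and from 57.9 to 39.5 CPM with UPF1 siRNA.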

How the results depend on the processing

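Each triplicate gave 3 libraries, so small changes of rare RNAs (PCGEM1, PCA3) and of MALAT1 could be missed. Over the 42 member results, 367 of 399 values under the other settings kept direction and call, as did 273 of 300 with 1 library left out. With the composition score as covariate the direction turned for MALAT1 with R1881 in the RCOR1 arm (-0.028) and for NEAT1 with R1881 in the UPF1 arm (0.089), and the latter was 0.224 without UPF1 R1881 libraries 1 and 2 and -0.327 to 0.005 with 1 library left out. The cause was not tested. By library size alone the share of called genes that were higher went from 53.3% to 26.5% for R1881 with control siRNA, 51.9% to 37.3% with UPF1 siRNA and 52.3% to 29.3% with RCOR1 siRNA, from 52.8% to 67.1% and 40.8% to 67.7% for UPF1 and RCOR1 siRNA in R1881, and from 49.6% to 75.2% and 29.7% to 50.9% for their interactions. Counts of called genes over all genes moved most for the small terms. Without UPF1 R1881 libraries 1 and 2 they went from 6405 to 2924 for R1881 in the UPF1 arm, 5128 to 1904 and 6244 to 2342 for UPF1 siRNA in R1881 against control and RCOR1 siRNA, 419 to 60 and 118 to 54 for the UPF1 and RCOR1 interactions, and 260 to 23 for the UPF1 minus RCOR1 response. With the covariate, whose adjusted p values are too small as said above, the counts rose. They were 8008 (from 5318) and 7712 (from 5101) for UPF1 siRNA in vehicle against control and RCOR1 siRNA. For RCOR1 siRNA in vehicle and R1881 they were 4412 (from 1772) and 4298 (from 1907). They were 2129 and 864 for the interactions and 845 for the response difference. Fitted on the compared groups alone they were 744 and 745 for RCOR1 siRNA and 177 and 27 for the interactions. The RCOR1 interaction gave 57 by library size alone and 76 with library sizes that leave out MALAT1 and NEAT1. Without a filter the UPF1 interaction gave 1320 and the response difference 1708, and DESeq2 gave 824 for the latter. With 1 library left out the counts ranged from 1118 to 1443 and 1092 to 1425 (RCOR1 siRNA, vehicle and R1881), 185 to 1166 and 50 to 122 (interactions) and 85 to 1636 (response difference). The labels give no replicate numbers shared between groups, but titles carry running numbers in which each 3 consecutive ones hold 1 library of each siRNA in 1 medium. Library 3 of each group lay above its group's mean composition score in 6 of 6 groups and library 1 below it in 5 of 6. Deviations of libraries of 1 set correlated above 0.1 in 4 of 9 pairs in vehicle (-0.43 to 0.38) and 7 of 9 in R1881 (-0.19 to 0.48), and 3 of 9 and 5 of 9 libraries correlated best with their own set, so the sets were not shown to pair the libraries. A replicate block by these sets, added after seeing the data, called MALAT1 for UPF1 siRNA in R1881 (-1.746, adjusted p = 0.0082) and its interaction (-2.281, 0.05 after rounding up). No other call changed among those of the 42 member results that this block could fit. MALAT1 for UPF1 against RCOR1 siRNA in R1881 and for their response difference was not among the 42. The block gave 1013 and 186 called genes for the UPF1 and RCOR1 interactions and 1935 for the response difference. R1881 against vehicle could not be fitted with this block, since each set lies in 1 medium.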

Other observations

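THSD4, a chromosome 15 gene from the list of genes near the members' loci, was picked out after its values were seen. It stood at 4.44 ± 1.01 CPM in control vehicle and 11.6 ± 0.704 CPM with UPF1 siRNA in vehicle (n = 3 libraries each). Of the 20 genes of that list tested, 3 rose and 5 fell in this comparison, so it does not stand for the list.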
